A study of Mus musculus with 4 samples.

Results

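Serum response factor (SRF), the growth factors CYR61 and CTGF, and a set of cytoskeletal genes were followed in H460, a human lung carcinoma cell line, exposed for 4 h to the isoprenoid alcohol farnesol, whose induction of cell death and of endoplasmic reticulum stress was the study's subject. The members were 8 genes: SRF, CYR61, CTGF, ANKRD1, ACTB, ACTG1, VCL and TAGLN. They were found by gene name among the 41000 non-control probes of a 2-colour oligonucleotide array, and 19 probes carried one of these names. Of these, 17 probes from 7 of the genes were bright enough to be tested, among 37342 tested probes and 17871 genes in all. The 1 group of the study was cells given 250 µM farnesol, each compared with matched cells given only the vehicle, dimethyl sulphoxide. There were duplicate experiments, called replicate 1 and replicate 2, and each was measured on 2 arrays with the dyes exchanged, so 4 arrays hold 2 replicates. The labels do not state whether the cultures were started separately. The p-values therefore rest on the spread between these 2 replicates, moderated by the spread over all tested probes. The organism label of the samples names the mouse, but the protocols name H460 and the probes carry human gene names, and the data were read as human. All results come from 1 line at 1 dose and 1 time.

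SRF is a transcription factor that binds the CArG box of many promoters. Its cofactors MKL1 and MKL2, also called MRTFs, are held in the cytoplasm by monomeric actin and reach the nucleus as actin polymerises, where they drive genes of actin, its partners and the contractile apparatus. A separate set of cofactors, the ETS proteins ELK1, ELK3 and ELK4, links SRF to MAP kinase signalling. YAP and its relative TAZ bind TEAD factors and induce CYR61, CTGF and ANKRD1, and the Hippo kinases hold YAP and TAZ in the cytoplasm. Both routes respond to cell tension and spreading, and CYR61, CTGF and VCL are known as targets of more than one of them.

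Between 82.7% and 93.0% of the probe spots of a channel were well above background, and saturation touched 19 to 51 spots of a channel. Arrays of 1 replicate with exchanged dyes correlated across probes at r = 0.94 in both replicates, and arrays of different replicates at 0.63 to 0.68. Probes are not independent replicates, so these values describe the arrays. The epithelial markers KRT8, KRT18, KRT19, TACSTD1 and CDH1 were all measured, each counted by its brightest probe. Of these 5, 4 were lower on all 4 arrays, where 24.7% of all genes were. KRT19, a simple-epithelium keratin, was at a log2 ratio of -0.65 ± 0.02 (SD, n = 2). KRT18 was lower on all 4 arrays on its brightest probe only, and its other probes were lower on 3 of 4. Fibroblast markers were tested for 5 of 7 genes and leukocyte markers for 4 of 5. Of each, 3 were higher on all 4 arrays, with log2 ratios of at most 0.31, where 21.0% of all genes were higher. Of 5 endothelial markers 1 was higher on all 4 arrays, and of 3 smooth muscle markers none in either direction.

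CTGF had nearly the same ratio on every array, SRF and VCL were higher on all 4 arrays by at least 1 probe each, CYR61 was higher in replicate 2 only, and the cytoplasmic actins were higher mainly in replicate 1. None of the 17 tested member probes passed limma's moderated test at an adjusted p of 0.05, where 0.0107% of all tested probes did. The lowest adjusted p of a member in that test was 0.21, for CTGF. At an unadjusted p under 0.05 there were 5 member probes, against 14.9% of all tested probes. Member probes higher on all 4 arrays numbered 8 of 17, and 0 were lower on all 4, where 19.8% of all tested probes were higher and 22.5% lower. Counted by the brightest probe, 3 of the 7 genes had an unadjusted p under 0.05 by limma, against 17.4% of all genes. By that probe 4 were higher and 0 lower on all 4 arrays, against 21.0% and 24.7% of all genes. An ACTG1 probe with saturated spots is among those counted at p under 0.05 and as higher. The median log2 ratio of the 17 was 0.30, at 0.31 in replicate 1 and 0.17 in replicate 2, beside 0.01 over all tested probes. No member reached 2-fold in both replicates, and 0.632% of all tested probes did so upwards and 0.206% downwards. In replicate 1 alone 3 member probes were at least 2-fold higher, and 0 in replicate 2, where 1.50% and 1.55% of all tested probes were. In RNA of a whole culture, a change in the share of cells that express a gene and a change in RNA per cell cannot be told apart.

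**Figure D1:**
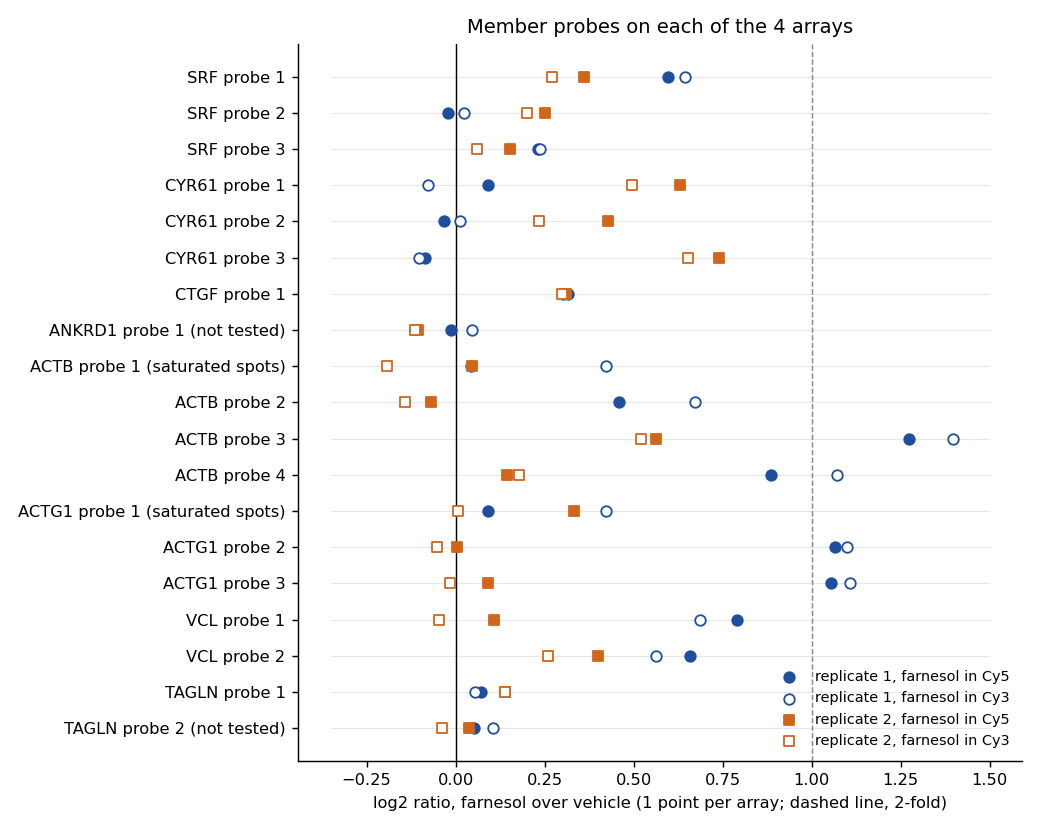
Log2 ratio of farnesol over vehicle (x axis) for each of the 19 member probes (y axis, ordered by brightness within a gene), with 1 point per array, circles for replicate 1 and squares for replicate 2, filled where farnesol was in Cy5 and open where it was in Cy3. The 4 points of CTGF lie together near 0.3, and the squares of CYR61 lie to the right of its circles, which are around 0. On the 5 actin probes with no saturated spot, the circles lie to the right of the squares.

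SRF itself, the transcription factor, had 3 probes. On the brightest (A_24_P346277) the log2 ratio was 0.60 and 0.64 on the arrays of replicate 1, and 0.36 and 0.27 on those of replicate 2. Its normalised log2 level was 10.34 with farnesol against 9.72 with vehicle in replicate 1, and 10.28 against 9.97 in replicate 2. All 4 arrays were higher with farnesol, and the lowest normalised farnesol level stood above the highest normalised vehicle level. Before normalisation, the spot means of replicate 2 were lower with farnesol (877 and 862) than with vehicle (1067 and 1049). The separation of levels thus rests on the normalisation. The mean log2 ratio was 0.47 ± 0.22 (SD, n = 2), a 1.38-fold difference with a 95% interval of 0.12 to 0.81 and an adjusted p of 0.26 by limma. The other SRF probes were dimmer. A_23_P111020 gave 0.00 in replicate 1 and 0.22 in replicate 2 (mean 0.11, adjusted p 0.63 by limma). A_24_P337657, whose raw spot intensity was only 92.2 to 131 against a local background of 50 to 58, gave 0.23 and 0.11 (mean 0.17, adjusted p 0.41 by limma). The probes of SRF therefore differed in size, and 2 of the 3 were higher on all 4 arrays. When each array was centred on its median in place of loess, the brightest probe kept 0.50 in replicate 1 and was at 0.01 in replicate 2.

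CTGF, a secreted matricellular protein of the CCN family and a standard YAP target, had 1 probe (A_23_P19663). Its log2 ratio was 0.32 and 0.30 on the arrays of replicate 1 and 0.31 and 0.30 on those of replicate 2. The 4 arrays lay closer together than those of any other tested member probe, and the replicates were 0.31 and 0.30, with an SD of 0.004. The mean was 0.31, a 1.24-fold difference, with a 95% interval of 0.13 to 0.48, an unadjusted p of 0.0120 and an adjusted p of 0.21 by limma. The standard error in that moderated test was 0.053, so the interval and p-values rest mostly on the spread of the other probes. The spot was dim: its raw intensity was 80.9 to 126, with a local background of 53 to 59, although it was well above background in all 8 channels. The offset of 50 added in the background correction pulls such ratios towards 0. With an offset of 0 the log2 ratio was 0.64 in replicate 1 and 0.80 in replicate 2, a mean of 0.72 or 1.64-fold, and the scanner software's processed signals gave 0.70 and 0.85, or 1.71-fold. The sign held on all 4 arrays in each, and the replicates were further apart than with the offset.

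CYR61, the CCN family relative of CTGF and an early-response target of both SRF and YAP, had 3 tested probes. The brightest (A_23_P46429) gave log2 ratios of 0.09 and -0.08 on the arrays of replicate 1 and 0.63 and 0.50 on those of replicate 2. A_24_P370946 gave -0.03 and 0.01, then 0.43 and 0.23. A_23_P46426 gave -0.09 and -0.10, then 0.74 and 0.65. On all 3 probes both arrays of replicate 2 stood above both arrays of replicate 1, and the replicate 1 values lay around 0. The replicate means were -0.09 to 0.01 in replicate 1 and 0.33 to 0.70 in replicate 2. The level of the brightest probe was 7.63 with farnesol and 7.63 with vehicle in replicate 1, and 8.24 against 7.68 in replicate 2, so the vehicle levels were close. The mean of that probe was 0.29 ± 0.39 (SD, n = 2), with a 95% interval of -0.28 to 0.85 and an adjusted p of 0.56 by limma. The spread between the replicates exceeded the mean difference on all 3 probes. With an offset of 0 the probe A_23_P46426 reached 1.41 in replicate 2 and stayed at -0.21 in replicate 1, and the scanner software's processed signals gave 1.58 and -0.21. A CYR61 probe past 2-fold in replicate 2 therefore depends on how the background is treated, while the order of the replicates was the same in each.

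ANKRD1, a nuclear and sarcomeric ankyrin repeat protein and the third of the standard YAP targets among the members, could not be measured. Its probe was well above background in 1 of 4 farnesol channels and 2 of 4 vehicle channels, with raw intensities of 63.6 to 86.5 against a background of 50 to 58. It was not tested, and no fold is given.

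**Figure D2:**
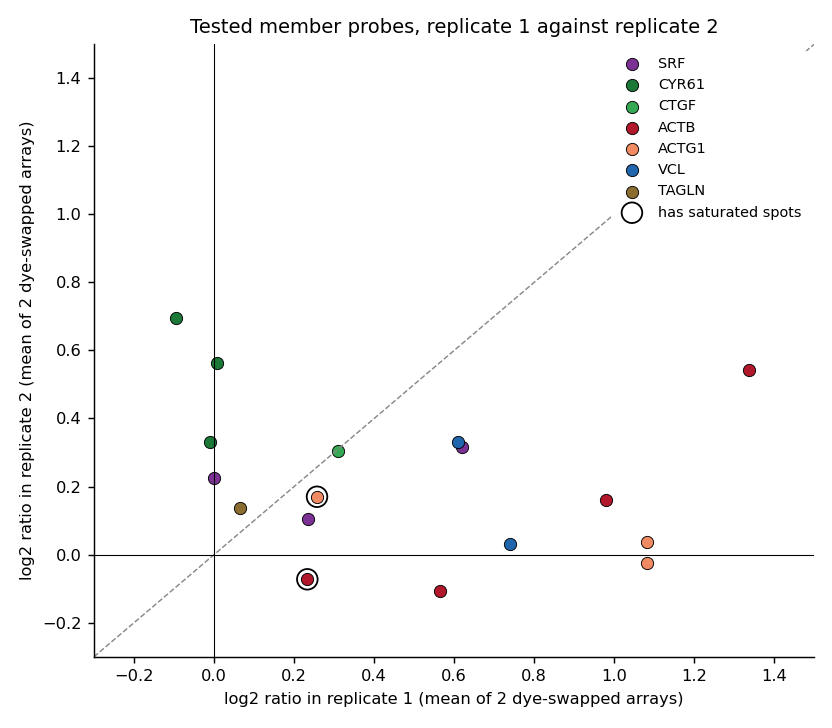
Log2 ratio in replicate 1 (x axis) against replicate 2 (y axis) for the 17 tested member probes, each the mean of 2 dye-swapped arrays, coloured by gene, with the line of equal values dashed and rings on probes with saturated spots. CYR61 lies above the line, the unsaturated probes of ACTB and ACTG1 lie below it, and CTGF lies on it.

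ACTB and ACTG1 encode the cytoplasmic beta- and gamma-actins, the bulk of non-muscle actin and long-known SRF targets. The brightest probe of each had saturated spots, 2 in farnesol and 1 in vehicle channels for ACTB and 2 and 3 for ACTG1. The upper limit of the scanner therefore distorts their ratios. In replicate 2 the ACTG1 probe was saturated in vehicle but not in farnesol channels, which can raise its ratio there. These gave log2 ratios of 0.23 and -0.07 in replicates 1 and 2 for ACTB (mean 0.08 ± 0.22, SD, n = 2) and 0.26 and 0.17 for ACTG1 (mean 0.21 ± 0.06). The other 5 actin probes had no saturated spot and carried the larger mean ratios.

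The ACTB probe A_23_P31323 gave 1.27 and 1.40 on the arrays of replicate 1 and 0.56 and 0.52 on those of replicate 2. All 4 arrays were higher with farnesol and this was the largest member value, at a mean log2 ratio of 0.94 ± 0.56 (SD, n = 2), or 1.92-fold. Its 95% interval was 0.15 to 1.73, with an adjusted p of 0.29 by limma. Its level was 14.27 with farnesol against 12.94 with vehicle in replicate 1, and 13.53 against 12.99 in replicate 2, so the replicates were closer in their vehicle than in their farnesol levels. A_24_P226554, also for ACTB, gave 0.89 and 1.07, then 0.14 and 0.18, with all 4 arrays higher. The third unsaturated ACTB probe, A_23_P135769, gave 0.46 and 0.67, then -0.07 and -0.14, so its sign turned between the replicates.

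The unsaturated ACTG1 probes were alike. A_23_P44037 gave 1.07 and 1.10 on the arrays of replicate 1 and 0.00 and -0.05 on those of replicate 2. A_32_P156963 gave 1.05 and 1.11, then 0.09 and -0.02. Both were just above 2-fold in replicate 1 and near 0 in replicate 2, with means of 0.53 ± 0.78 and 0.56 ± 0.74 (SD, n = 2) and adjusted p of 0.57 and 0.53 by limma. Over the 5 unsaturated actin probes, replicate 1 ranged from 0.56 to 1.34 (1.48-fold to 2.52-fold) and replicate 2 from -0.11 to 0.54. Replicate 1 exceeded replicate 2 on 5 of 5. The gap between replicates on these probes was 0.67 to 1.11, beside gaps of 0.03 to 0.21 between dye-swapped arrays. Under median centring A_23_P31323 was at 0.29 in replicate 2, and the other 4 were between -0.35 and -0.09. The coding sequences of the actins are nearly identical, so a probe may take signal from more than one of them, and the probes are not independent measures. Whether they do was not tested.

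VCL encodes vinculin, which couples integrin adhesions and cadherin junctions to actin filaments and is an SRF target. Its brighter probe (A_24_P47182) gave log2 ratios of 0.79 and 0.69 on the arrays of replicate 1 and 0.11 and -0.05 on those of replicate 2. The other (A_23_P202280) gave 0.66 and 0.56, then 0.40 and 0.26. Both probes were higher in replicate 1, and they parted in replicate 2, where only the second was higher on both arrays. Their means were 0.38 ± 0.50 and 0.47 ± 0.20 (SD, n = 2), with adjusted p of 0.53 and 0.25 by limma. The second is a 1.39-fold difference, with a 95% interval of 0.15 to 0.79.

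TAGLN encodes transgelin (SM22), an actin-bundling protein of smooth muscle and a classical SRF target. The tested probe (A_23_P87011) gave 0.07 and 0.06 on the arrays of replicate 1 and 0.14 and 0.14 on those of replicate 2. It was higher on all 4 arrays by a small amount, with a mean of 0.10 ± 0.05 (SD, n = 2), or 1.07-fold, a 95% interval of -0.09 to 0.29 and an adjusted p of 0.54 by limma. Under median centring its mean was 0.00. Its second probe was well above background in 1 of 8 channels and was not tested.

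Replicate 1 exceeded replicate 2 on all 4 ACTB, all 3 ACTG1 and both VCL probes and on 2 of 3 SRF probes, while replicate 2 exceeded replicate 1 on all 3 CYR61 probes and on TAGLN. With CTGF, whose replicates were nearly equal, 12 of 17 probes had the larger value in replicate 1. The same share over all tested probes was not computed, and their median log2 ratio was 0.004 in each replicate. The median gap between replicates was 0.34 for member probes and 0.11 for all tested probes. The median gap between dye-swapped arrays of the members was 0.05 in replicate 1 and 0.09 in replicate 2, so most of their spread lay between the replicates and not between the arrays of a replicate. The order of the replicates is that of these 2 experiments, and what differed between them was not tested.

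A fit of the 4 arrays with the replicate as a random block gave another count. In that fit, which takes the arrays of a replicate as correlated at 0.53 in place of averaging them, 4 member probes passed limma's threshold, all higher, where 2.65% of all tested probes passed upwards and 10.6% in either direction. They were CTGF (adjusted p 0.0137), the brightest SRF probe (0.0210), ACTB A_23_P31323 (0.0235) and VCL A_23_P202280 (0.0237). No CYR61, ACTG1 or TAGLN probe passed in that fit. The correlation is 1 value over all probes, and the dye-swapped arrays it counts as partly separate observations share their RNA.

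**Figure D3:**
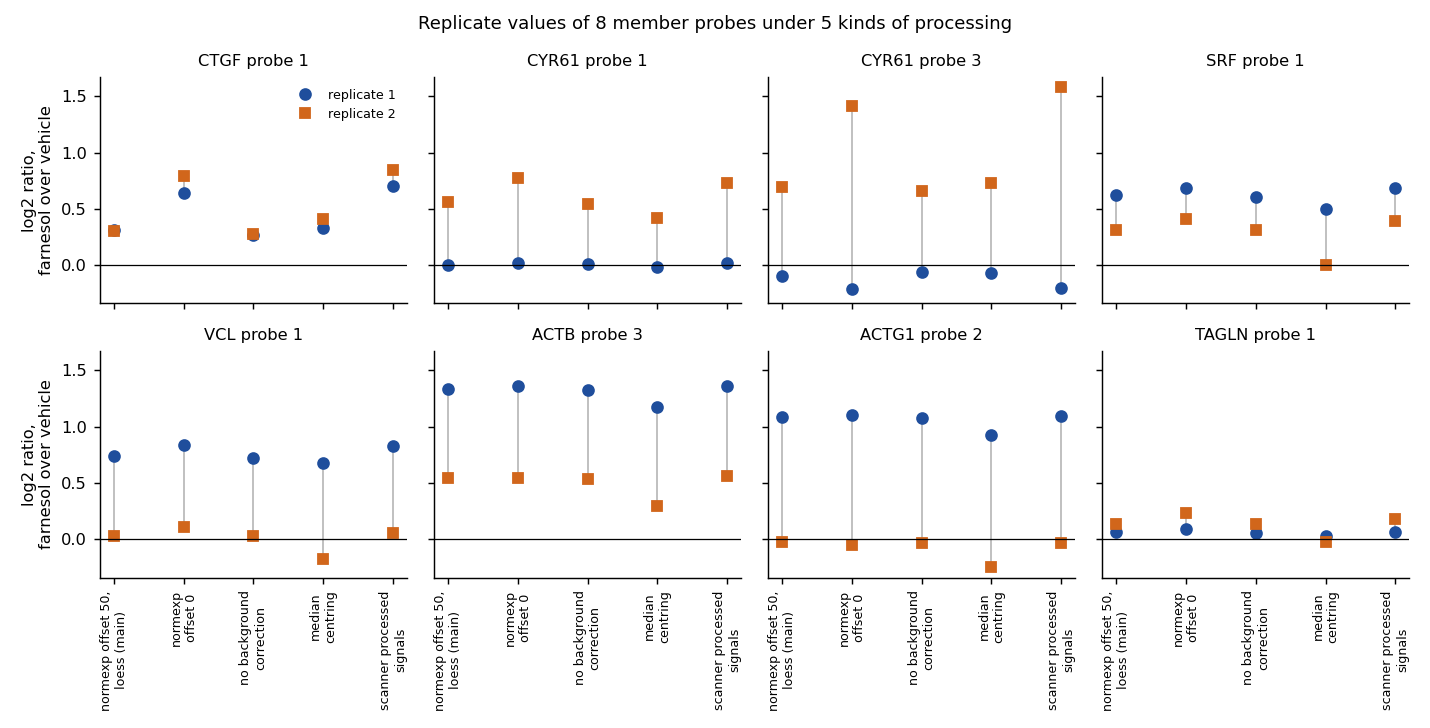
Replicate values (circles, replicate 1; squares, replicate 2; log2 ratio of farnesol over vehicle on the y axis) of 8 member probes under 5 kinds of processing (x axis), with a line joining the replicates. CTGF and CYR61 probe 3 (A_23_P46426) move most with the treatment of background, and median centring lowers the replicate 2 values of SRF, VCL, ACTB and ACTG1.

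The authors' deposited table of ratios, which follows replicate 1 and not the mean of the replicates, lists 10 of the member probes. In the authors' deposited table ACTB has linear ratios of 2.57, 2.00 and 1.50, and ACTG1 has 2.14 on both of its probes. VCL has 1.77 and 1.75 in the authors' deposited table, CTGF has 1.63, and SRF has 1.61 and 1.40. CYR61, ANKRD1 and TAGLN are not among the 7018 probes of the authors' deposited table, and CYR61 was near 0 in replicate 1 here.

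The other genes of these pathways were described through 8 lists of 92 genes, of which 88 had a tested probe, each gene counted by its brightest. None of the 88 passed limma's test, where 0.0168% of all genes did, and 22 had an unadjusted p under 0.05, where 17.4% of all genes did. Higher on all 4 arrays were 24 (27.3%), and lower on all 4 were 20 (22.7%), against 21.0% and 24.7% of all genes. Under median centring 17 were higher and 25 lower. At least 2-fold in both replicates were 2 higher (TUFT1 and GADD45A) and 1 lower (NF2), against 0.834% and 0.313% of all genes. The median log2 ratio of the 88 was 0.03.

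Of the 6 cofactors of SRF, 5 were close to 0. MKL1 was at -0.02, ELK1 at -0.03, ELK3 at 0.03, ELK4 at 0.01 and MYOCD, the cardiac and smooth muscle cofactor, at 0.00. MKL2 was at -0.36 on its brightest probe, from -0.77 in replicate 1 and 0.05 in replicate 2. Its other probe was at -0.51, from -0.17 and -0.85, and lower on all 4 arrays, so the probes of MKL2 differed in which replicate was lower. Of the 6 cofactors 1 was higher on all 4 arrays (ELK4, at most 0.03 on an array) and 0 lower. The probes of MKL1, ELK1 and ELK4 were dimmer than that of CTGF (mean log2 intensity 6.44, 6.42 and 6.35 against 6.47). The offset of 50 therefore pulls their ratios towards 0 too. Of 23 other SRF targets of the contractile and actin cytoskeleton, 6 were higher and 7 lower on all 4 arrays, with a median of -0.07. TUFT1, which encodes tuftelin, was at 2.13 ± 0.84 (SD, n = 2; 2.72 and 1.54 in the replicates). TPM4, a cytoskeletal tropomyosin, was at 1.20 ± 0.50, with 4 probes between 1.20 and 1.69. Its probes A_23_P141974 (2.08 and 1.31 in the replicates) and A_24_P82880 (1.77 and 1.45) were past 2-fold in both replicates. The brightest TPM4 probe (1.56 and 0.85) and A_32_P21993 (1.89 and 0.99) were not. FHL2, a LIM-domain partner of SRF, was at 0.996 ± 0.30. CFL2, the muscle cofilin that severs actin filaments, was at -0.60 ± 0.20. Their adjusted p by limma were 0.19 to 0.22, so none of them passed. Of the 4 other actin isoforms 3 were higher and 1 lower on all 4 arrays. ACTC, cardiac actin, was at 0.83 on its brightest probe and 0.16 on its other, ACTA2 at -0.16, ACTG2 at 0.12 and ACTA1 at 0.08.

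Of the 9 genes of the YAP and TEAD list, 3 were higher and 2 lower on all 4 arrays, with a median of -0.01. YAP1 was at 0.08, with its other probe at -0.03. WWTR1, which encodes TAZ, was at 0.29 ± 0.23 (SD, n = 2) on its brightest probe and at -0.13, 0.12 and -0.09 on the others, a mean of 0.05, so its probes differed in sign. The factors TEAD1 to TEAD4 were at -0.05, -0.01, 0.18 and -0.26, but the other TEAD1 probe was at 0.28 and higher on all 4 arrays. The YAP-binding angiomotins AMOT and AMOTL1 were at -0.02 and 0.03, and VGLL4, a TEAD-binding antagonist of YAP, was at -0.29 on its brightest probe and -0.05 on its other. The regulators of this route thus spread to both sides of 0. Of the 7 tested Hippo kinases and partners, 0 were higher and 2 lower on all 4 arrays. NF2, which encodes merlin, an activator of the Hippo kinases, was at -1.15 ± 0.12 (-1.06 and -1.23 in the replicates, adjusted p 0.18 by limma), but only on its brightest probe. Its other 3 probes were dimmer (mean log2 intensity 5.99 to 6.35) and gave -0.02 to -0.19. Among them A_24_P168726 and A_23_P29199 were lower on all 4 arrays. The offset of 50 in the background correction pulls the ratios of such dim probes towards 0. MOBK1B, the MOB1 adaptor of the LATS kinases, was at -0.42 ± 0.02 (adjusted p 0.19 by limma) and at -0.16 on its other probe. LATS1, STK3, STK4, SAV1 and FRMD6 (named C14orf31 on the array) lay between -0.11 and 0.08 on their brightest probes. The kinase LATS2, counted among the other YAP targets below, was at 0.12 and higher on 3 of 4 arrays. Another STK4 probe was at -0.19 and lower on all 4 arrays, and a further one was at 0.08 and higher on all 4.

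The 20 other YAP targets had 6 higher and 4 lower on all 4 arrays and a median of 0.06. GADD45A, a growth arrest gene with several stress inducers, was at 2.71 ± 0.74 (SD, n = 2). NUAK2 (SNARK on the array), a stress-activated kinase, was at 1.69 ± 1.25, from 2.58 and 0.81 in the replicates. FJX1 was at -0.84 ± 0.46 and AJUBA (JUB on the array), a LIM protein that binds LATS kinases, at -0.60 ± 0.10. The 3 tested CCN relatives of CYR61 and CTGF (NOV, WISP1 and WISP2) had none with 1 sign on all 4 arrays and a median of 0.07.

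Of 16 focal adhesion proteins, the neighbours of vinculin, 5 were higher and 4 lower on all 4 arrays, with a median of 0.02. TES (testin) was at 0.54 ± 0.35 (SD, n = 2) on its brightest probe and at 0.04 on its other, where the replicates had opposite signs. The filament-elongating protein VASP was at 0.41 ± 0.33 and ZYX (zyxin) at 0.33 ± 0.12. PTK2, the focal adhesion kinase, was at -0.33 ± 0.02 on its brightest probe and at -0.27 and 0.03 on the others.

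**Figure D4:**
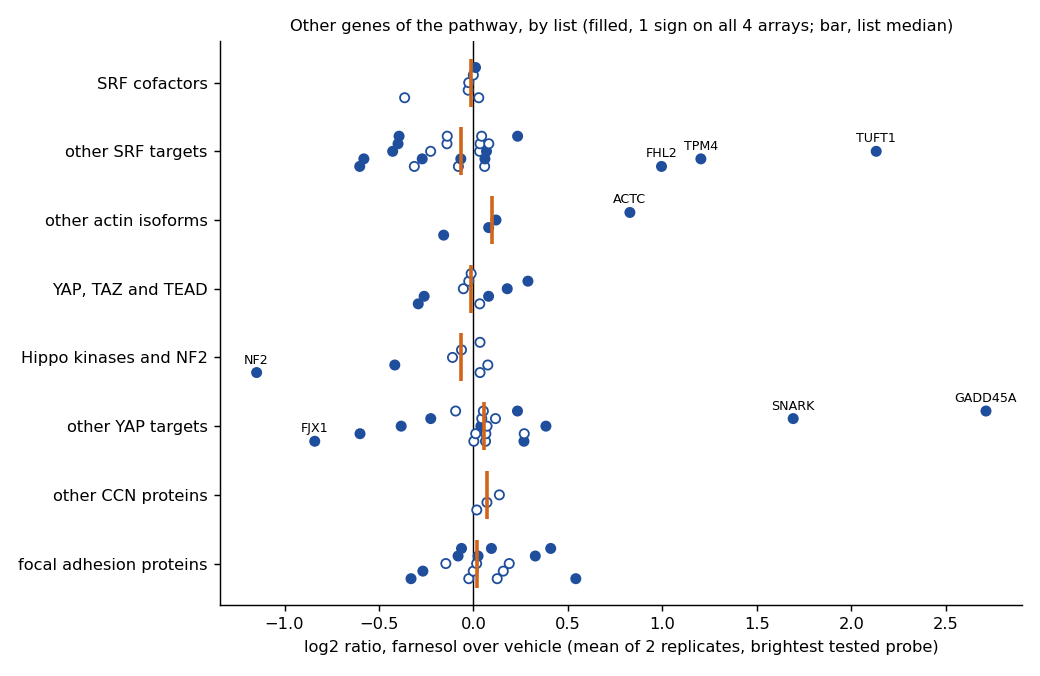
Mean log2 ratio of farnesol over vehicle (x axis, mean of 2 replicates, brightest tested probe) of the 88 tested genes of 8 lists (y axis), filled where all 4 arrays had 1 sign and open otherwise, with an orange bar at each list's median and names on the outermost genes. TUFT1, TPM4, FHL2, ACTC, GADD45A and NUAK2 (SNARK) stand to the right, NF2 and FJX1 to the left, and most genes lie within 0.6 of 0.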

How the data were processed

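Per the labels, Cy3- and Cy5-labelled amplified RNA was hybridised on 4 arrays and read with Feature Extraction (8.1 in the submitters' processing notes, 8.1.1.1 in the file headers). The deposited intensity values are spot means and local background medians, per the file headers. The deposited processed intensities and the log10 ratio of Cy5 over Cy3 are background-subtracted and dye-normalized, per the file headers. The authors deposited a table of linear ratios and p-values per probe, 2 identical copies, whose log2 ratio correlates with the scanner ratio of replicate 1 at r = 0.9999. It bears on the direction of all ratios, since the labels give source names such as 4H and OH.

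From the mean intensities, limma 3.58.1 (R 4.3.3, with the package data.table, version 1.17.8) corrected background by normexp (offset 50) and normalized by loess, with control and outlying spots at weight 0. Arrays with farnesol in Cy3 were turned, and each dye-swapped pair was averaged, so n = 2. For the levels of single channels, the mean intensities were also scaled to 1 distribution between arrays (limma's Aquantile). A probe entered the test if, for farnesol or for vehicle, at least 1 array in each of the replicates read it well above background. limma's moderated test against 0 was two-sided, adjusted by Benjamini-Hochberg over 37342 probes, with 1 residual and 1.85 prior degrees of freedom. The brightest tested probe stands for a gene. The script was tested on simulated data. The members, lists and rules were chosen with earlier results of these data known. Named list genes are the up to 4 with the largest mean among those with 1 sign on all 4 arrays, and all pathway regulators. Gene symbols are the array's own and may be old. Sequences, positions and 1 further gene list are not reported here. Other background corrections, scalings, filters, probe rules, dye orientations and replicates were tried.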

Additional observations from a re-analysis of the deposited data

How the results depend on the processing

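Of the comparisons of a result with an alternative, leaving out a replicate aside, 122 were classed as unchanged. For a ratio, this meant the same sign and side of the threshold. A count could move within a set margin. The list counts under median centring, 17 higher and 25 lower in place of 24 and 20, were classed as unchanged, although their balance turned. Many ratios could not move: other filters and the random block left a gene's brightest probe and its ratio as they were. CTGF and TAGLN had 1 tested probe each, so other probe rules repeated their values. The exceptions were these. The ACTB ratio of its saturated brightest probe was 0.08 and turned to -0.074 under median centring. With the 4 arrays in 1 fit and the replicate as a random block, CTGF (0.31) and SRF (0.47) passed limma's threshold, at adjusted p 0.0137 and 0.0210, and 4 member probes passed in place of 0. The alternative averages nothing and has more observations. Without replicate 1 or replicate 2, member probes at least 2-fold numbered 0 to 3, list genes higher on all arrays 38 to 44 in place of 24, and lower ones 28 to 37 in place of 20, since fewer arrays must share a sign. Over the 12 alternatives that keep both replicates, CTGF ranged from 0.28 to 0.77, CYR61 from 0.20 to 0.40, SRF from 0.25 to 0.55, VCL from 0.25 to 0.47, ACTG1 from 0.06 to 0.53, TAGLN from 0.00 to 0.16 and ACTB from -0.07 to 0.45. Mean ratios were above 0 for 17 member probes, and for 16 under median centring, where 4 of 17 in place of 8 were higher on all 4 arrays (16.4% of all tested probes). The median ratio of all tested probes was 0.01, and -0.006 under median centring. These 17 probes come from 7 genes, so they are not separate measures. Over all probes limma's test called 4, and 138 with an offset of 0, 34 with median centring, 87 from the scanner's processed signals, 7 and 18 with the arrays of 1 dye orientation, and 3951 with the random block. The choice of the brightest probe with no saturated spot was added after seeing the data. Each array already compares a farnesol RNA with its matched vehicle RNA, so the test of the ratios against 0 uses the pairing and there is 1 group. The raw signals of CTGF and of 2 CYR61 probes were low, so the size of their ratios depends on the background correction, and ANKRD1 was too close to background to measure.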
